A study of Mus musculus with 14 samples.

Results

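Trat1 and the 3 resistin-like genes Retnlb, Retnla and Retnlg lie side by side on mouse chromosome 16, and their contacts with the surrounding chromosome are described here in 2 contact maps of embryonic stem cells. The members were chosen by position, as the 15 bins of 10 kb that the 4 genes span, out of 535 bins in each map. The 4 genes are among 28 protein-coding genes annotated in the mapped interval. Trat1 occupies chr16:48730774-48810547, Retnlb chr16:48816856-48818892, Retnla chr16:48842609-48844461 and Retnlg chr16:48872608-48874498 (positions from RefSeq for GRCm38.p6, the same coordinates as mm10). The first 8 bins are called Trat1 bins and the last 7 resistin-like bins. The bin that holds both the end of Trat1 and Retnlb was counted with the resistin-like genes. Single resistin-like genes fill 1 bin each, so these 7 bins were pooled.

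The series used Hi-C, which ligates stretches of DNA found near one another in the nucleus, to map contacts around Dppa2 and Dppa4. The data used here are 2 pooled maps, of untreated mouse embryonic stem cells (mESC) and of mESC after 2 days of auxin. In engineered cells this plant hormone can be used to remove a tagged protein. The labels describe 14 samples in 10 groups: mESC, NPC (neural precursor cells), and the mESC lines 100k.del, 145k.del, 18k.del, 680kinv, abc.del, ab.del, bc.del and c.del, all from a hybrid of the Cas and 129 strains. The labels name no auxin sample and no tagged protein, and none of these 14 samples has a map here, so no labelled group entered a comparison. The sources used here do not say whether the 2 maps come from that hybrid, from 1 clone or from several cultures. Contact maps hold no expression values, so the cell type could not be checked against its markers.

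Neither map has a replicate map, so every comparison is between these pooled libraries and not between conditions. The maps held 439849 (untreated) and 433895 (auxin) read pairs, of which 376400 and 372484 joined bins at least 20 kb apart. The 15 bins of the cluster took part in 21457 and 22437 pairs, with 626 to 2822 and 624 to 2990 pairs per bin. In each map 18 bins held under 100 pairs, and 0 of them lay in the cluster. Contact is given as observed over expected pairs, where the expected number comes from the mean contact at the same distance in the same map, so 1 is the mean for that distance. Brackets hold 95% intervals that cover counting error only, exact for counts and for ratios of counts. Differences from untreated to auxin are on the log2 scale, and a contact is said to rise or fall only where that interval lies above or below 0. The intervals were not adjusted for the number of partners.

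Trat1 encodes a transmembrane adaptor that binds the T cell receptor complex. The resistin-like genes encode small secreted proteins of the resistin family: Retnla is a marker of alternatively activated macrophages, Retnlb is made by goblet cells of the gut, and Retnlg is known from the bone marrow and myeloid cells. Chromosomes fold into domains whose parts touch each other more often than they touch the next domain, and the edges between them appear in contact maps as local drops in contact, called insulation. None of these genes is known as a stem cell gene, and the maps say where they lie in that folding, not whether they are expressed.

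Promoter sequences of 3 of the 4 members, from 250 bases before to 50 bases after the annotated start, were found in RefSeq (GRCm38.p6). Those of Retnla and Retnlg are shown because they display how alike the promoters of neighbouring genes of this cluster are. How well reads can be told apart there was not tested. Retnla is at chr16:48842359-48842658 and Retnlg at chr16:48872358-48872657, both on the plus strand and written 5′ to 3′. Capitals mark runs of at least 8 identical aligned bases.
Retnla: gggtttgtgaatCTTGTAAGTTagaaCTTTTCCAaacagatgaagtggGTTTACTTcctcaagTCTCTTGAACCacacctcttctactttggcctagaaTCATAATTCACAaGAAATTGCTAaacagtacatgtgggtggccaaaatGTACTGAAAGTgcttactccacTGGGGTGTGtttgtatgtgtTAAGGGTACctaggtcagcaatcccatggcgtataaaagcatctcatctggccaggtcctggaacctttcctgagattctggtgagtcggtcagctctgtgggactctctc
Retnlg: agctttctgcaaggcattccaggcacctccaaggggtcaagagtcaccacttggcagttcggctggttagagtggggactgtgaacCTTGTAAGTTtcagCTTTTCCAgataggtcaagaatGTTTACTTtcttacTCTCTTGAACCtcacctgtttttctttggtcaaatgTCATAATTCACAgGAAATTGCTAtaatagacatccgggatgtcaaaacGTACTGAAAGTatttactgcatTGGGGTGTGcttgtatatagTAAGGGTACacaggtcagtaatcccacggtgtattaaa
Over 225 aligned bases, 178 were identical (79.1%), of which 88 lay in the runs in capitals. The shared stretch begins further into the Retnlg window than into that of Retnla, so the annotated starts of both genes are not at matching positions. The letters GATC, the site cut by MboI, were in none of the 3 member windows on either strand, and 48.0% of 32851 such windows hold them. TATAAA was found once on either strand in the windows of Trat1 and of Retnla and not in that of Retnlg, and 13.6% of all windows hold it. The Trat1 window, chr16:48772013-48772312 on the minus strand, lies within the annotated span of the gene. Retnlb is named only. At 10 kb a bin holds far more than a promoter, so no contact below is assigned to one.

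Inside the cluster, contacts were slightly more frequent than the mean for their distance in both maps. The whole cluster had 2461 untreated pairs, 1.15 times expected (1.10 to 1.19), and 2159 auxin pairs, 1.09 times expected (1.05 to 1.14). Among the 35 blocks of 150 kb into which the interval was laid out, this was the rank 7 untreated and the rank 9 in auxin, counted from the highest. The difference of -0.07 (-0.15 to 0.01) included 0, but after the maps were balanced again it was a fall of -0.11 (-0.20 to -0.03). Trat1 with itself stood at 1.08 in the untreated map and 1.09 in the auxin map. The resistin-like bins among themselves stood at 1.19 untreated, on 438 pairs, and at 1.08 in auxin, on 391 pairs, with a difference of -0.14 (-0.34 to 0.06). Contacts between Trat1 and the resistin-like bins were at 1.17 and 1.10. Over all distances the difference was -0.09 (-0.21 to 0.02), and a fall of -0.14 (-0.26 to -0.02) after balancing again. Without the bin shared by Trat1 and Retnlb it was -0.04 (-0.18 to 0.10), and that of the whole cluster was -0.04 (-0.13 to 0.06). Of the 3 distance ranges compared, contacts between Trat1 and the resistin-like bins fell at 50 to 90 kb, from 1.20 times expected to 1.02 (-0.23, -0.40 to -0.07). That range includes pairs of the shared bin. At 20 to 40 kb the difference was 0.01 (-0.19 to 0.22) and at 100 to 140 kb 0.13 (-0.18 to 0.43).

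**Figure D1:**
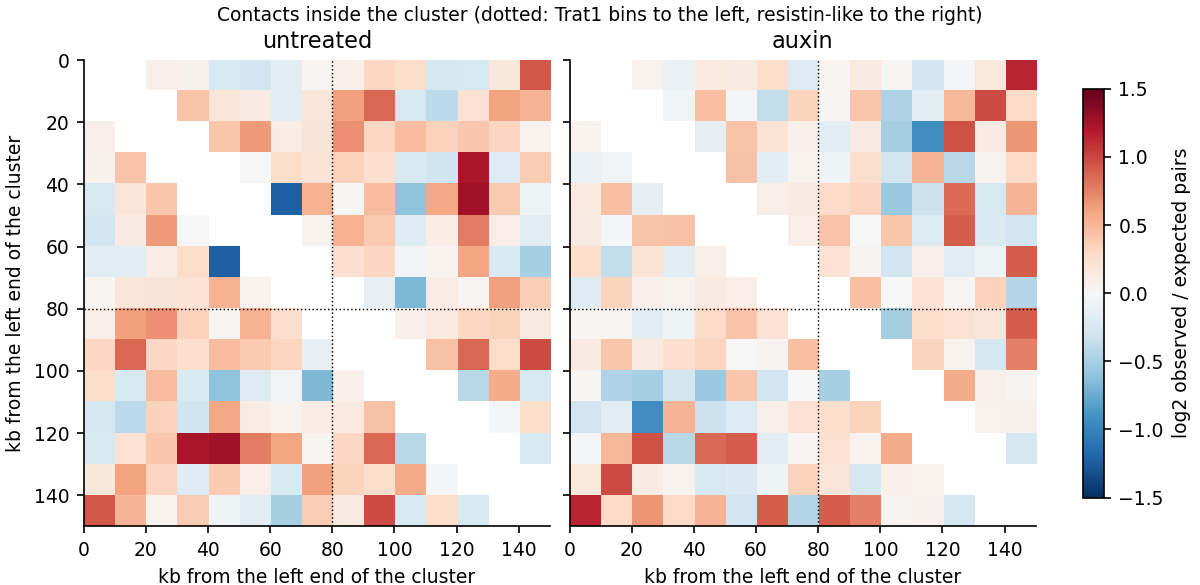
Contacts inside the cluster in each map, as log2 of observed over expected pairs for every 2 bins at least 20 kb apart (white: nearer pairs, not used). Both axes are kb from the left end of the cluster, and the dotted line at 80 kb separates the Trat1 bins from the resistin-like bins. Of 91 squares, 66 lie above 0 in the untreated map and 60 in the auxin map.

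Outside the cluster, the untreated map showed an uneven surrounding. The cluster touched the far left of the interval, with Nectin3, Cd96 and Phldb2, more often than the mean for the distance. It touched Morc1 to its left less often, and likewise the 11 blocks from 49.03 to 50.68 Mb to its right. Contacts with partners over 2 Mb to the left were at 1.57, on 1659 pairs, those at 510 kb to 1 Mb to the left at 1.26, on 2712 pairs, and those at 510 kb to 1 Mb to the right at 0.439, on 1109 pairs. In the untreated map 12 of 34 other blocks were at least 1.3 times the mean (background over all 595 block pairs, 18.3%), and 11 were at most 1/1.3 of it (26.2%). In the auxin map the counts were 9 (7.73%) and 10 (14.3%). The cluster thus had a larger share of high blocks than the background in both maps, 35.3% untreated and 26.5% in auxin. Its share of low blocks was also larger, 32.4% and 29.4%.

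**Figure D2:**
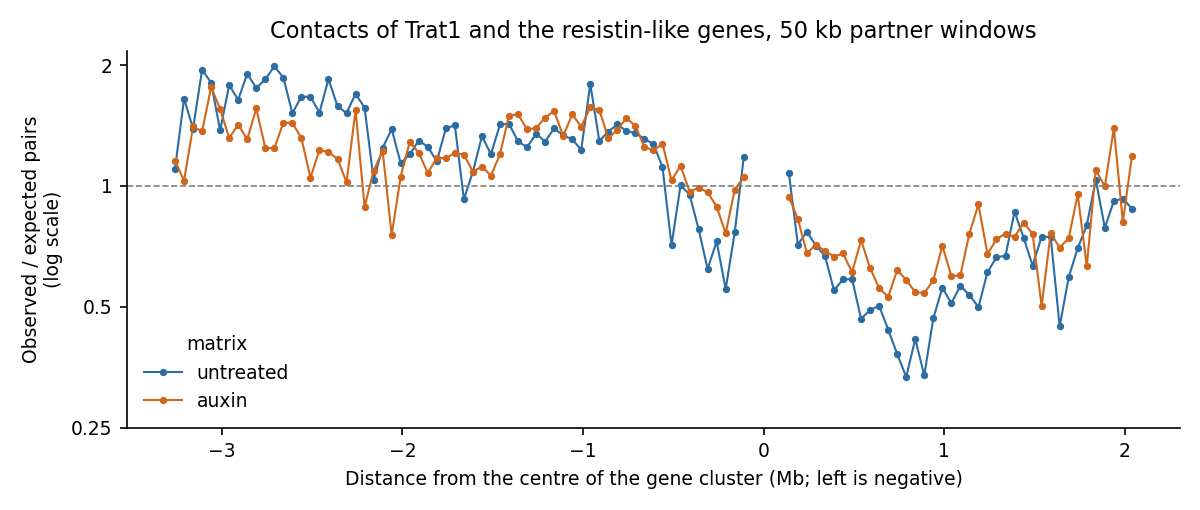
Distance-corrected contact of the cluster with partner windows of 50 kb (observed over expected pairs, log scale) against their distance from the cluster centre in Mb, for the untreated and the auxin map. The untreated line lies mostly above the auxin line beyond 2 Mb to the left, and below it around 0.3 Mb to the left and 0.8 Mb to the right.

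From untreated to auxin, contact with 4 of the 34 blocks was higher by at least 1.3 times (background 20.2%) and with 4 lower (12.3%), so the cluster's share of changed blocks, 11.8% each, was below the background for rises and near it for falls. By the interval, 11 blocks rose (background 24.2%) and 6 fell (22.2%). The median difference over the 34 blocks was 0.03, and over all 595 block pairs it was also 0.03. All 6 falls were to the left, where 3 of 21 blocks rose, and 8 of the 13 blocks to the right rose while 0 fell. These counts have no background by side, so a shift particular to the cluster was not tested. By distance between bins, however, contact at 20 to 100 kb to the right fell from 1.19 to 1.01 (-0.24, -0.37 to -0.11). Summed over everything outside the cluster, contact rose from 0.891 to 0.948 (0.09, 0.06 to 0.12), and by 0.03 (0.00027 to 0.06) after the maps were balanced again.

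The 5 blocks with the largest rise included 1 to the left and 4 to the right. At 48.43 to 48.58 Mb, within Morc1, contact rose from 1158 pairs and 0.681 times expected to 1597 pairs and 0.945 (0.47, 0.36 to 0.58). Of the 33 block pairs at this separation of 300 kb, it was the rank 2 from the lowest in the untreated map and had the largest difference of all, against a median of -0.02. Morc1 encodes a protein that silences transposons in the male germline. To the right, contact with 49.48 to 49.63 Mb, a stretch without a protein-coding gene, rose from 0.384 to 0.569 (0.57, 0.37 to 0.77). Contact with 49.33 to 49.48 Mb, with Gm4802, rose from 0.477 to 0.641 (0.43, 0.23 to 0.62), and that with 49.63 to 49.78 Mb, with Ift57, from 0.415 to 0.558 (0.43, 0.18 to 0.68). That with 50.38 to 50.53 Mb, within Bbx, rose from 0.581 to 0.750 (0.37, 0.06 to 0.68). All of these stayed under the mean for their distance in auxin. Rises of these blocks were not particular to the cluster, which was higher by at least 1.3 times with 4 blocks. The blocks at 49.33 and 49.63 Mb were each higher with 14 other blocks, the most of all blocks, and lower with 0 and 1. Those at 48.43 and 49.48 Mb were each higher with 11 and lower with 4 and 2. The block at 50.38 Mb was higher with 9 and lower with 0.

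The 5 largest falls were all over 2 Mb to the left. With the Nectin3 blocks, contact fell from 1.58 to 1.12 at 46.48 to 46.63 Mb (-0.50, -0.77 to -0.23) and from 1.62 to 1.21 at 46.33 to 46.48 Mb (-0.42, -0.67 to -0.16). With the stretch at 46.18 to 46.33 Mb, where no protein-coding gene is annotated, it fell from 1.69 to 1.22 (-0.46, -0.79 to -0.14), and with the Cd96 and Gm4737 block at 46.03 to 46.18 Mb from 1.79 to 1.32 (-0.44, -0.77 to -0.12). With 45.58 to 45.73 Mb, which overlaps Slc9c1, Gcsam, BC016579, Tmprss7, Tagln3 and Abhd10, it fell from 1.68 to 1.32 (-0.36, -0.70 to -0.01). The median difference of all block pairs at the same separation was in the other direction for each of the 5, from 0.11 at 45.58 Mb to 0.32 at 46.18 Mb. These falls were not particular to the cluster, which was lower by at least 1.3 times with 4 blocks. The blocks at 46.03, 46.18 and 46.33 Mb were lower with 14, 12 and 12 other blocks, the most of all blocks. Those at 46.48 and 45.58 Mb were lower with 6 and 5. The falls left all 5 blocks above the mean for their distance. In between, the gene-poor stretch from 47.38 to 48.13 Mb had high contact in both maps, 1.27 to 1.42 untreated and 1.40 to 1.52 in auxin. Its block at 47.83 to 47.98 Mb had the highest auxin contact of 29 block pairs at that separation.

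**Figure D3:**
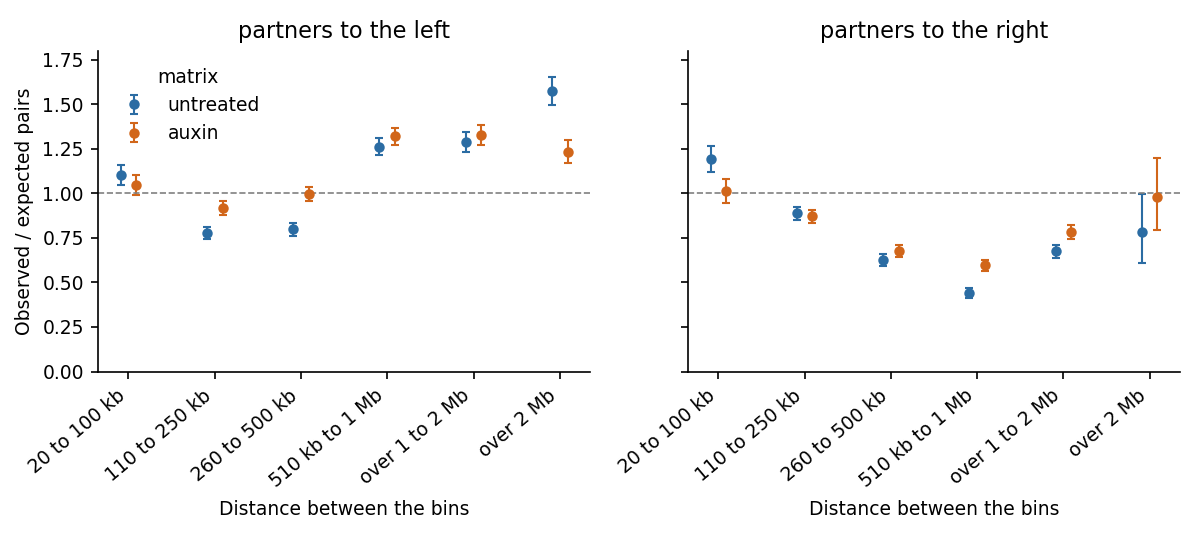
Distance-corrected contact of the cluster with partners to its left and right (observed over expected pairs), by the distance between the bins, in the untreated and the auxin map. Points are values of 1 pooled map each and bars are exact 95% counting intervals. By the log2 difference, the maps differ most to the left at 260 to 500 kb and over 2 Mb, in opposite directions. To the right they differ most by it at 510 kb to 1 Mb (0.44), while contact at 20 to 100 kb fell (-0.24).

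On both flanks the cluster was set off by a local drop in insulation score, which is log2 of the mean contact across a bin, between the 100 kb to its left and the 100 kb to its right, divided by the average of that mean over the interval. To the right, the bin starting at 49020001, between Cip2a and Myh15 and 140 kb from the end of the cluster, scored -0.78 in both maps. To the left, the lowest untreated score within 150 kb of the cluster was at the bin starting at 48670001, 50 kb away, between Morc1 and Trat1. This left bin was picked after the score profile was seen, and as the lowest untreated score, so its own difference is a description. It scored -0.43 untreated and -0.20 in auxin. In auxin the lowest score within those 150 kb lay 90 kb from the cluster instead, at the bin starting at 48630001. This bin overlaps an end of Morc1 and scored -0.19 untreated and -0.27 in auxin. With a window of 50 kb the scores there were 0.00 and -0.24, against -0.28 and -0.17 at the bin starting at 48670001. The lowest point within 150 kb on the left thus lay in different bins of the 2 maps, and the one on the right in the same bin.

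The cluster's own contacts beyond these bins are given next. With the 250 kb beyond the bin starting at 48670001, which overlap Morc1, contact rose from 2429 pairs and 0.677 times expected to 3170 pairs and 0.911 (0.43, 0.35 to 0.50). Trat1 rose by 0.40 (0.30 to 0.49) and the resistin-like bins by 0.48 (0.36 to 0.61). Some of these pairs also enter the score by which the bin was picked, so the rise is not separate from that choice. Without the partners within 100 kb of the bin, which hold all of the shared pairs, contact rose from 0.697 to 0.955 (0.45, 0.34 to 0.56). With the first 250 kb beyond the right drop, which hold Myh15, a myosin heavy chain gene, contact was 0.669 and 0.680 (0.02, -0.08 to 0.13). Within the stretch between that left bin and the cluster, contact fell from 1.17 to 1.07 (-0.13, -0.23 to -0.03). Taken out to 1 Mb beyond the right drop, contact rose from 0.549 to 0.645 (0.23, 0.16 to 0.30). At mirrored distances to the left it rose from 1.02 to 1.16 (0.19, 0.14 to 0.24), so the wider rise was on both sides.

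Over the cluster itself the insulation score was lower in auxin at 15 of 15 bins (background, 49.9% of 515 bins), by 0.04 to 0.18. Its mean went from 0.19 to 0.08, a difference of -0.11, and 116 of the 515 bins changed by that or lower. With a window of 200 kb the difference was -0.019. Neighbouring squares share most of their pairs, so the 15 bins are not independent. In both maps the lowest score within the cluster was at the Retnlg bin, 0.05 untreated and -0.07 in auxin.

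**Figure D4:**
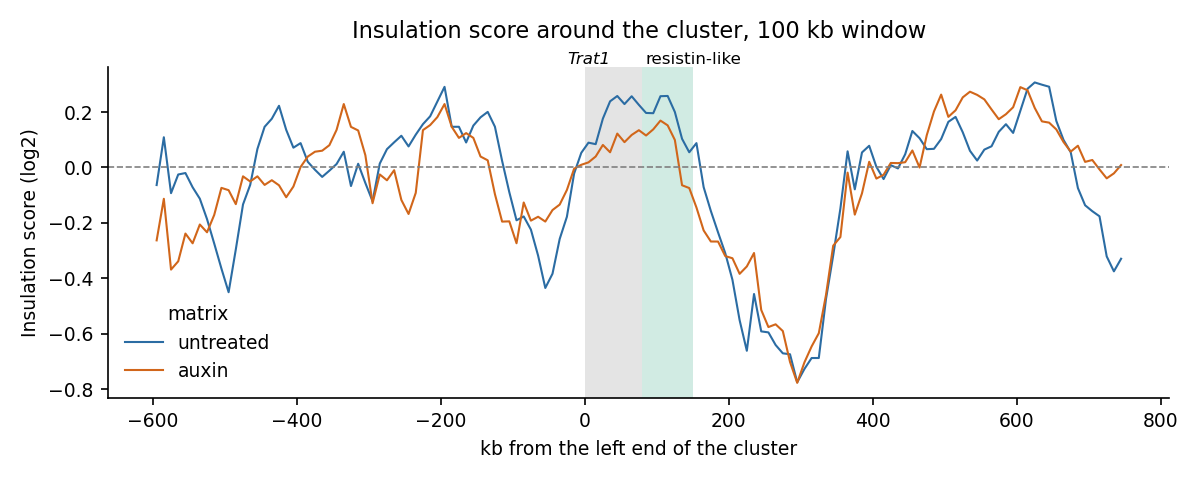
Insulation score (log2) by distance in kb from the left end of the cluster, in the untreated and the auxin map. Trat1 bins are shaded grey and resistin-like bins green. Within 150 kb to the left of the cluster the lowest score is -0.43 untreated, 50 kb away, and -0.27 in auxin, 90 kb away. Farther left, scores go down to -0.45 untreated and -0.37 in auxin. On the right the lowest score is -0.78 in both maps.

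The cluster touched its left side more than its right in both maps. Within 1 Mb, left contacts were at 0.955 untreated and 1.06 in auxin, and right contacts at 0.711 and 0.744. The log2 of right over left was -0.42 (-0.47 to -0.38) and -0.52 (-0.56 to -0.47), and of the 21 blocks with 1 Mb on both sides it was the rank 3 from the lowest in both maps. The difference was -0.09, with a normal-approximation interval of -0.16 to -0.02, and -0.02 when the deposited values were averaged without counts. For Trat1 the balance was -0.51 in both maps. For the resistin-like bins it went from -0.32 to -0.52 (difference -0.20, -0.30 to -0.10). In the auxin map both gene groups leaned left by about as much.

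The genes around which the series was designed, Dppa2 and Dppa4, are active in pluripotent cells and the early embryo, where their products bind DNA, and lie in 3 bins to the left of Morc1. Contact of the cluster with them rose from 206 pairs and 0.748 times expected to 292 pairs and 1.08 (0.53, 0.26 to 0.79). The resistin-like bins rose from 69 to 129 pairs, 0.635 to 1.17 (0.88, 0.45 to 1.33). Trat1 had 137 and 163 pairs, 0.821 and 1.01 (0.30, -0.03 to 0.64), an interval that includes 0. Trat1 minus resistin-like was -0.58, with a normal-approximation interval of -1.11 to -0.05. Contact with Dppa4 rose from 149 to 218 pairs (0.60, 0.29 to 0.91), and Dppa2 alone, with 57 and 74 pairs, had a difference of 0.32 (-0.20 to 0.84). By single gene, Retnlb had 13 and 34 pairs with Dppa2 and Dppa4 (1.34, 0.38 to 2.38), Retnla 9 and 14 and Retnlg 6 and 12, the latter too few to show a difference. The Retnlb bin also holds the end of Trat1. Without it the cluster's rise was 0.45 (0.18 to 0.73).

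Contacts with listed genes were counted where at least 50 pairs were expected in both maps, which held for 12 of the 18 genes that could be placed. Of these 12, 3 were higher by at least 1.3 times (background over 97 pairs of other genes, 22.7%) and 1 lower (8.25%). By the interval 4 rose (27.8%) and 2 fell (17.5%), with a median difference of 0.07 against 0.05 over the 97 pairs. These shares are near the background. Over all 18 genes, including those with few pairs, 4 were higher and 2 lower, and the median was -0.01. Cd200 was not analysed here.

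Of the germline and early embryo genes, 2 of 3 rose (background 27.8%), Dppa4 as above and Morc1. Over its whole body Morc1 rose from 1966 pairs and 0.643 to 2662 pairs and 0.898 (0.48, 0.40 to 0.57). Morc1 rose for both gene groups, by 0.45 (0.35 to 0.56) for Trat1 and by 0.53 (0.39 to 0.67) for the resistin-like bins. Of the lymphocyte and immune surface genes with enough pairs, 2 of 3 fell (background 17.5%). Cd96, a receptor of T and natural killer cells, fell from 98 pairs and 1.89 to 81 pairs and 1.21 (-0.64, -1.08 to -0.20). The resistin-like bins fell with it from 1.98 to 0.818 on 41 and 24 pairs, while Trat1 had 57 pairs in each map, 1.83 and 1.52 (-0.27, -0.82 to 0.29). For 3 of the 18 placed genes the interval of Trat1 minus resistin-like, by the normal approximation, did not include 0. The same split of every block gave such an interval in 12.9% of 1190 cases, a share over blocks and not genes. The count of 3 of 18 is thus near that background. It was 1.01 (0.11 to 1.91) for Cd96, -0.81 (-1.44 to -0.18) for Dppa4, and 0.02 to 2.58 for Slc9c1. For Cd96, only 31.2 untreated pairs were expected with Trat1 and 20.8 with the resistin-like bins, under the minimum of 50 used for the counts of genes. For Slc9c1 they were 18.5 and 15.3, also under that minimum. Nectin3, an adhesion gene, fell from 1.58 to 1.22 (-0.37, -0.65 to -0.10). Cd96 and Nectin3 both lie over 2 Mb to the left, where the block at 46.18 to 46.33 Mb, without a protein-coding gene, also fell (-0.46). Whether gene function matters apart from position was not tested. Cd47, whose product restrains phagocytes, was at 0.528 and 0.583 (0.15, -0.22 to 0.51). Gcsam, a germinal centre gene, had only 9 and 16 pairs.

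Of the other neighbours with enough pairs, 2 of 6 rose (background 27.8%) and 0 fell (17.5%). After the maps were balanced again 1 rose and 2, Dzip3 and Myh15, fell. Ift57, a gene of transport within cilia, rose from 108 pairs and 0.397 to 158 pairs and 0.560 (0.50, 0.13 to 0.86). Cip2a, whose product inhibits a protein phosphatase, rose from 0.631 to 0.786 (0.32, 0.11 to 0.52), and by 0.07 (-0.14 to 0.28) after the maps were balanced again. Its neighbour Dzip3, a ubiquitin ligase gene, was at 0.927 and 0.906 (-0.03, -0.14 to 0.08), with -0.19 (-0.30 to -0.08) after balancing again. Myh15 was at 0.695 and 0.696 (0.00, -0.12 to 0.13), with -0.13 (-0.26 to -0.0045) after balancing again. Bbx, an HMG-box gene, was at 0.733 and 0.714 (-0.04, -0.26 to 0.19). Phldb2, far to the left, was high in both maps, 1.70 and 1.42 (-0.26, -0.52 to 0.01).

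**Figure D5:**
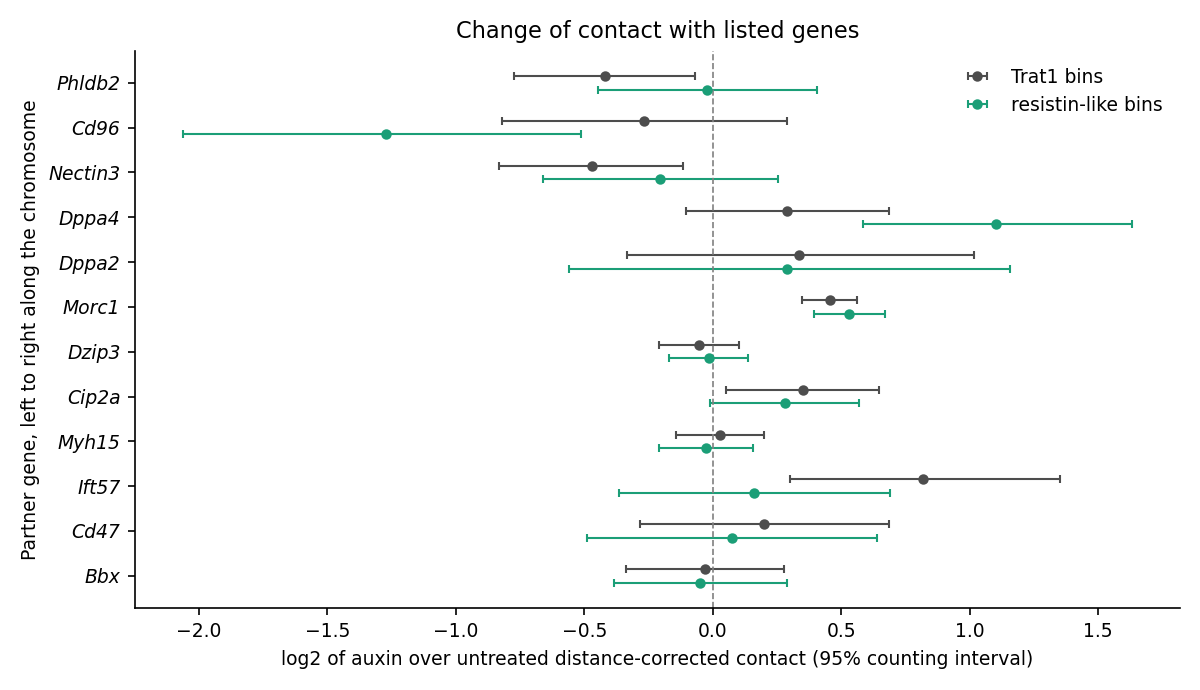
Difference in contact with 12 listed genes, as log2 of auxin over untreated distance-corrected contact, for the Trat1 bins and the resistin-like bins. Genes are in chromosome order, and bars are 95% counting intervals. Both groups lie above 0 for Morc1, and their values differ by -0.81 for Dppa4 and 1.01 for Cd96 (Trat1 minus resistin-like). For the 150 kb blocks that hold these 2 genes the differences were -0.14 (-0.36 to 0.09) and 0.15 (-0.50 to 0.80). Under 50 pairs were expected with Cd96 for either group.

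Trat1 and the resistin-like bins were also compared with each other, beside the same split of first 8 and last 7 bins in every block. Their contacts with a block differed beyond the counting interval for 6 of 34 blocks in the untreated map (background 21.8%), 4 with Trat1 higher and 2 with it lower, and for 1 in the auxin map (16.1%). Trat1 was higher by at least 1.3 times in auxin for 6 blocks (background for the first 8 bins of every block, 21.6%) and lower for 5 (13.3%). The resistin-like bins were higher for 3 (background for the last 7 bins, 21.3%) and lower for 4 (14.4%). The differences had the same sign in both for 25 of 34 blocks (background 73.2%), and Trat1 minus resistin-like had a median of -0.03. The interval of that quantity lay above 0 for 2 blocks and below it for 1 (background for either, 12.9%). The same-sign share was thus that of any block. At 49.93 to 50.08 Mb Trat1 rose by 0.72 and the resistin-like bins had -0.15. At 49.33 to 49.48 Mb the values were 0.60 and 0.22, and at 47.23 to 47.38 Mb, -0.43 and 0.13.

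The genes whose contact profile over the blocks was most like that of the cluster in the untreated map were Dzip3 with a Spearman correlation of 0.78 over 33 blocks, Gm52257 with 0.77 over 33 and Morc1 with 0.76 over 31. In the auxin map they were Dzip3 with 0.53, Slc9c1 with 0.47 and Dppa2 with 0.44, each over 33 blocks. Slc9c1 had -0.46 in the untreated map, the lowest of the genes there. Among genes over 500 kb away, the most alike were Gm52257, Gm4737 with 0.25 and Cd96 with 0.24 untreated, and Slc9c1, Gm52257 with 0.23 and Gcsam with 0.17 in auxin. These are descriptions: blocks of 1 map share its library and depth, neighbouring genes share partners, and genes of few bins have noisier profiles.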

How the data were processed

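The maps are 2 symmetric matrices of 535 bins from 45520001 to 50870000 on chromosome 16, each stated position being taken as a bin's start. The values are a contact signal without a unit, which the authors made, per the names they gave the deposited matrices, by combining replicates, binning at 10 kb and iterative correction. The submitters' processing notes list mm10 and Trim Galore. Per the labels' protocols, the labelled samples were cut with MboI and captured for 45488946 to 50879849 on chromosome 16. The aligner, read filters and balancing software were not given in the sources used here.

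Every value was taken as a whole number of pairs times a factor for each bin. Factors were estimated from bins over 1500 kb apart, with the search revised until values came out whole. In both matrices 100% of nonzero values then lay within 0.02 of a whole number. Expected pairs are the mean value at each distance divided by these factors. Intervals are exact Poisson for counts and exact Clopper-Pearson for ratios, computed with scipy 1.17.1 and numpy 2.4.6. Those for differences of log ratios are normal approximations. They cover counting error only: neither duplicates of 1 molecule nor variation between cultures enter them. No test or p-value was possible with 1 pooled map per condition. The functions were tested on simulated maps. In a first version with many changed block pairs, the estimates lay slightly low because the expected value shifted. The number of changed pairs was then lowered. In the maps used here, 120 of 595 block pairs were higher and 73 lower by at least 1.3 times, more than the final version changed. The final version therefore cannot show that the differences given here are free of that shift.

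The members, lists and rules were chosen with earlier results of these data known. Named are the 4 members, 19 listed genes of which 18 were placed, the 5 blocks with the largest rise and fall, and the 3 genes of most alike profile. Alternatives were another expected value, mean values, balancing again, leaving out sparse bins or the shared bin, other distances, blocks, windows and folds.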

Additional observations from a re-analysis of the deposited data

How the results depend on the processing

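Of 132 values for single genes, gene groups and all outside contacts under the alternatives, 126 stayed within the counting interval, 6 moved beyond it and 0 changed direction from a called value. Some of the 126 could not move. No listed gene has pairs with the cluster under 50 kb, so the 50 kb alternative left those values as they were. Contacts of Trat1 with itself do not include the shared bin. The 6 were Slc9c1 with mean values (0.20 against -0.50, neither called) and, after balancing again, Morc1 (0.35), Dzip3 (-0.19), Cip2a (0.07), Myh15 (-0.13) and all outside contacts (0.03). Balancing again had the widest effect: 2 blocks were higher, the left and right balance differed by -0.16, contact beyond the right boundary by 0.14 and beyond the left bin by 0.31, and the insulation score by -0.15. Of 143 values with an interval, 6 changed their call: 5 gained a fall and 1 rise was lost. After balancing again these were the whole cluster (-0.11), Trat1 with the resistin-like bins (-0.14), Dzip3, Myh15 and the lost Cip2a. The sixth was Trat1 with the resistin-like bins at 50 kb or more (-0.15, -0.30 to -0.0022). With a fold of 1.5, 0 blocks were higher and 0 lower, and with partner blocks of 100 kb 8 were higher. Without the bin shared by Trat1 and Retnlb, 2 blocks and 1 listed gene were lower. With a largest distance of 500 kb the balance differed by -0.23 and contact beyond the right boundary by 0.13. With a window of 200 kb the insulation score differed by -0.019. The cause of these moves was not tested. Contact with Dppa2 and Dppa4 was higher in auxin under every alternative run, by 0.40 to 0.53. So was contact beyond the left bin, by 0.31 to 0.44, a result added after the data were seen. Both were bound to be unchanged with pairs at least 50 kb apart, and mean values gave no interval. Contact beyond the left bin was also bound to be unchanged with a largest distance of 500 kb, since all its pairs lie nearer. With windows of 50 kb and 200 kb the left bin scored -0.28 and -0.50 untreated and -0.17 in auxin with either. No paired analysis was possible because each condition has 1 pooled map without replicate numbers. Depth limits single resistin-like genes and distant partners. Of all bin pairs of the interval over 1500 kb apart, 67.3% were empty in the untreated map and 62.8% in the auxin map.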
